A study of Mus musculus with 34 samples.

Results

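Loci where Jun alone among 6 monomers had a peak after activation of mouse macrophages are described here. They were chosen by the peak lists themselves, where a missing peak means only that none passed the threshold of the list. The KLA peaks of 6 monomers in C57BL/6 macrophages, Jun and JunB and JunD, Fos and FosL2, and ATF3, were joined where they overlapped by 1 bp or more, which gave 43239 KLA loci. A locus was new when no Veh peak of ATF3, Jun or JunD overlapped it, and 19462 loci were new. Of these, 230 held a Jun peak and no peak of the other 5 monomers, which is 1.18% of the new loci, 0.532% of all KLA loci and 1.32% of the 17480 Jun KLA peaks.

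The study used chromatin immunoprecipitation followed by sequencing (ChIP-seq) in thioglycollate-elicited macrophages (TGEMs), cells that enter the peritoneum of a mouse after thioglycollate injection. TGEMs were taken 3 days after injection from 8-week male C57BL/6 mice (labelled C57Bl/6EiJ, C57Bl/6J in the methods) or Balb/cJ mice, and were treated with PBS (Veh) or with 100 ng/mL Kdo2 lipid A (KLA) for 1 h. A knockout, labelled PPARgKO on the C57Bl6 background, was sampled in Veh only, for ATF3, Jun and JunD; the age of these mice and the driver of the deletion were not given in the sources used here. PU.1 and CEBPα were mapped in C57BL/6 TGEMs in Veh and KLA, and PPARγ in Veh. Each condition had 1 list for all of its replicate experiments, so no value had a replicate error. Shares of loci are given with 95% Wilson intervals and differences between shares with 95% Newcombe intervals; both cover counting error over loci only and say nothing of the variation between mice.

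AP-1 is a dimer of basic leucine zipper proteins. Jun can pair with itself, with another Jun protein, or with Fos and ATF proteins, and the common AP-1 site is the TRE, TGACTCA, with the CRE, TGACGTCA, as a longer variant. KLA activates TLR4, the receptor of bacterial lipopolysaccharide, which switches on NFκB and the MAP kinases, and Fos and JunB are immediate-early genes of that response. PU.1 and CEBPα are lineage-determining factors that occupy many macrophage enhancers before a stimulus arrives. PPARγ is a nuclear receptor of lipid metabolism that binds with RXR to AGGTCA repeats.

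The sequences of 9 loci are shown as examples: they include loci among those with the highest Jun counts and loci where BALB/cJ also had a Jun peak. Each is the central 200 bp or the part of it outside annotated exons, read on the plus strand of GRCm38 (mm10), 5′ to 3′. Capitals mark matches to any of the 14 motifs that were searched on both strands, which are spelled out with the motif results. Loci near Plpp3, Ptger4 and Rnd1 were among those with high Jun counts far from any gene start or within a gene body. Each of these 3 lay beside a stronger AP-1 peak.
Plpp3 (chr4:105261459-105261658): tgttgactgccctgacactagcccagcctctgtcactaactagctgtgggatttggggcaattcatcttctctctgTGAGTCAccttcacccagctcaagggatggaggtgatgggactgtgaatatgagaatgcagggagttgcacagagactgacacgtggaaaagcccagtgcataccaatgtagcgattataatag
Ptger4 (chr15:5495561-5495760): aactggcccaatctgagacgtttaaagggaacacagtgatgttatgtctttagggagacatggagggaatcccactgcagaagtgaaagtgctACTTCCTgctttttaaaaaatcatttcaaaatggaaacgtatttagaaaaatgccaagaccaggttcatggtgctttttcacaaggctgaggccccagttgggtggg
Rnd1 (chr15:98673011-98673210): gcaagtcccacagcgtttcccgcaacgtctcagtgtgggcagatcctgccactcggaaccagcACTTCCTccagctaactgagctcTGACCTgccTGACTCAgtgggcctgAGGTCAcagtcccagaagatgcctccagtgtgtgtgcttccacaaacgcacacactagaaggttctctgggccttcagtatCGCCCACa
The locus in an intron of Hacd2 had no AP-1 KLA peak near it, and held a TRE.
Hacd2 (chr16:35056842-35057041): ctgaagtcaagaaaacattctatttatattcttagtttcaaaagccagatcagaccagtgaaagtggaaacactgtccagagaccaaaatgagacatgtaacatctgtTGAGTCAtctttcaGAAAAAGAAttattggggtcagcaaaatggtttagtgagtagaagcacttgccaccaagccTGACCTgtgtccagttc
The locus at the start of Tpm4 stood for the GC-rich promoter loci, that at Gpx1 for the few promoter loci with a TRE, and those at Hpse, Coro1a and near Fth1 for the loci with Jun KLA peaks in both strains.
Tpm4 (chr8:72135121-72135258): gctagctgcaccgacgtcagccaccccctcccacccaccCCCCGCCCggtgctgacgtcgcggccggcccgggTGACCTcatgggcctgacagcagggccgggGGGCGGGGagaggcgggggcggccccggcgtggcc
Gpx1 (chr9:108339559-108339747): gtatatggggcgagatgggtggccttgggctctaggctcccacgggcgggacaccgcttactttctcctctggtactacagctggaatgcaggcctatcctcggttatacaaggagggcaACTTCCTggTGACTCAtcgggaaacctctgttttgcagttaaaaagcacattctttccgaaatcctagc
Hpse (chr5:100719744-100719943): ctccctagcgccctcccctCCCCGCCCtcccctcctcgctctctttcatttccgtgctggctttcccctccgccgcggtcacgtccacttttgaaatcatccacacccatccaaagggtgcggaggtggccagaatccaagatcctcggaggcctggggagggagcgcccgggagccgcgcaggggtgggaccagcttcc
Coro1a (chr7:126704817-126705013): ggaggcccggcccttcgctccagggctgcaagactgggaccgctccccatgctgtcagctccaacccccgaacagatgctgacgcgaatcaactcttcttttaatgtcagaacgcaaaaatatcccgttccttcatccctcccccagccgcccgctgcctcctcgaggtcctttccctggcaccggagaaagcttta
Fth1 (chr19:9955010-9955209): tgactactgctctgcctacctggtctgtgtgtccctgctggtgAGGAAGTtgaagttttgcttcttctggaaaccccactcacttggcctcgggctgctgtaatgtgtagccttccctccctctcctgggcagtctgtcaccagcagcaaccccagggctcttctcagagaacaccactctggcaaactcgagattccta

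The Jun peaks of these loci were among the weakest of their list. The count of a peak is the whole number deposited with it, not scaled to library size, so counts were ranked within a list. Over the 230 loci the Jun KLA count ran from 16 to 43 with a median of 19 and quartiles of 17 and 21, against a median of 31 and a maximum of 145 over the whole Jun KLA list. The lowest count of any Jun KLA peak was also 16, and 18 of the 230 loci were at it. In the lowest of 5 count bins, with counts from 16 to 22, lay 198 of the 230 loci (86.1%), and 6 loci reached the list median. New loci with Jun and another monomer, of which there were 4178, had a median Jun count of 25 and a maximum of 110. The score of a peak is its scaled irreproducible discovery rate, from 540 at the threshold of 0.05 to 1000. Its median was 598 at these loci and 997 over the list, and 9 loci (3.91%) scored 830 or more, which is an IDR of 0.01, against 64.3% of the list. Count and score come from the peaks that chose the loci and are a description.

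**Figure D1:**
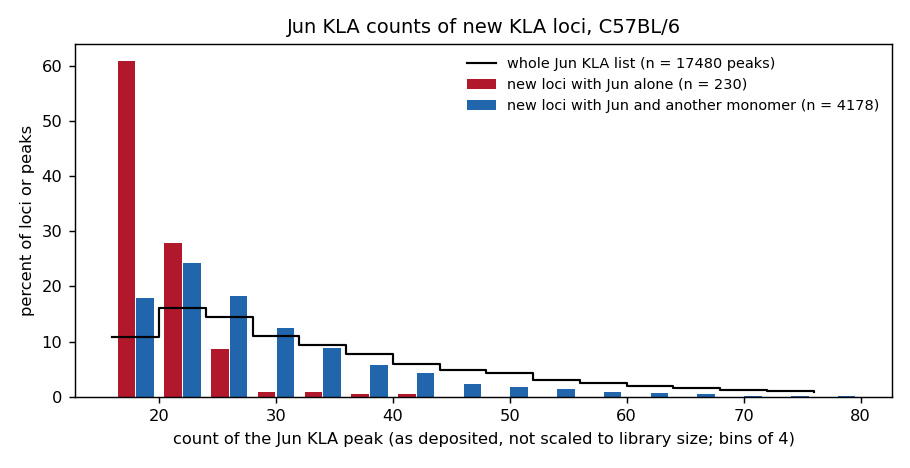
Distribution of the deposited Jun KLA count (x axis, bins of 4, not scaled to library size) as percent of loci or peaks (y axis). Red bars are the 230 new loci with Jun alone, blue bars the 4178 new loci with Jun and another monomer, and the black line the 17480 peaks of the whole list; 60.9% of the Jun-alone loci fall in the bin from 16 to 19, which holds 10.9% of the list. Counts of 80 or more are not drawn.

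Other AP-1 peaks were close to some of these loci without touching them. The gap to the nearest KLA peak of another monomer had a median of 1645 bp. It was within 200 bp at 43 loci and within 1 kb at 97, and over 50 kb at 14. A second Jun KLA peak lay within 200 bp of 24 loci. Just inside the rule, the smallest gap was 8 bp and 2 loci had a gap of 10 bp or fewer. Just outside it, 1 new Jun peak shared 10 bp or fewer with a peak of another monomer, with 9 bp shared. Veh peaks of Fos, FosL2 and JunB did not enter the rule: a FosL2 Veh peak overlapped 8 of the 230 loci, a Fos Veh peak 1, and a JunB Veh peak none. The shares of all KLA loci with such gaps or Veh overlaps were not counted.

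The loci with the highest counts were a mixed group. The highest, with a Jun count of 43 and a score of 1000, lay 104 kb from the start of Plpp3, which encodes a lipid phosphate phosphatase. It held a TRE, and its edge was 132 bp from a Jun peak with a count of 70 and 108 bp from a JunD peak with a count of 644. BALB/cJ TGEMs had a Fos KLA peak there with a count of 181 and no Jun, ATF3, JunD or JunB KLA peak. The locus 251 kb from the start of Ptger4, which encodes the prostaglandin E2 receptor EP4, had a Jun count of 34. Its PU.1 counts were 688 in Veh and 223 in KLA, on the separate scales of these lists, and 119 bp away stood a Jun peak whose count was 72. The locus in an intron of Rnd1 had a count of 27 and lay 135 bp from a Jun peak with a count of 37. All 3 neighbouring sites held peaks of the 6 monomers within 135 bp of the locus.

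The locus in an intron of Hacd2, a gene of very-long-chain fatty acid synthesis, differed from these in its surroundings. Its Jun count was 27, and the nearest KLA peak of any of the 6 lists analysed here was 639212 bp away. In BALB/cJ it had KLA peaks of ATF3 with a count of 47, of JunD with 31, of Fos with 52 and of JunB with 29, and a Jun Veh peak with a count of 19, but no Jun KLA peak. PU.1 was present there in Veh, with a count of 239, and not in KLA. So in C57BL/6 only Jun passed the threshold there after KLA, while in BALB/cJ 4 other monomers did.

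At the start of genes, the locus with the highest count was 39 bp upstream of Tpm4, which encodes an actin-binding tropomyosin, with a Jun count of 39. Its 200 bp held a GC content of 79.0% and 23 CpG sites, and Fos in BALB/cJ KLA, with a count of 55, was the only one of 16 other lists with a peak there. The Gpx1 locus, 371 bp inside the gene of the antioxidant enzyme glutathione peroxidase, had a Jun count of 32 and BALB/cJ KLA counts of 27 for Jun, 55 for ATF3, 63 for JunD and 73 for Fos. The Fam32a locus had a Jun count of 31 and PU.1 peaks in both treatments. The Hpse locus, 127 bp upstream of the heparanase gene, had a Jun count of 26, and the Cox16 locus, at the start of a cytochrome c oxidase assembly gene, also 26. Plekha2, which encodes a phosphoinositide-binding adaptor, held a pair of the loci in its introns, with counts of 31 and 26 and 1494 bp between them. The first of this pair lay 29 bp from a FosL2 peak and was in none of the 16 other lists. The locus 25.5 kb from Fth1, the ferritin heavy chain gene, had a count of 25, which 9 loci shared, and the highest score among these 9.

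The position of the loci, which the rule did not use, differed from that of the other new loci: gene starts were more frequent. The centre lay within 1 kb of the transcription start site (TSS) of a protein-coding gene at 93 of 230 loci, 40.4% (34.3 to 46.9), against 15.9% of all KLA loci. It was 13.0% at new loci with Jun and another monomer, which is 27.4 percentage points lower than with Jun alone (interval of the difference 21.2 to 33.9). It was 12.5% at the 4478 new loci with ATF3 alone, a difference of 27.9 points (21.7 to 34.4), and 26.7% at the 1668 new loci with JunD alone, a difference of 13.8 points (7.25 to 20.5). Since the Jun-alone loci are weak, the comparison was repeated within the lowest of 5 count bins: 39.4% of 198 Jun-alone loci and 14.9% of 1533 loci with Jun and another monomer lay within 1 kb of a TSS, a difference of 24.5 points (17.7 to 31.7).

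Within 1 kb, 63 centres lay upstream of the TSS and 30 downstream, and 42 were within 100 bp of it. The other loci were spread over introns (66 loci, 28.7%), sequence outside genes (66 loci, 28.7%) and exons (5 loci, 2.17%). Their median distance to a TSS was 18376 bp. Over all 230 loci the median distance was 3797 bp, against 15063 bp at new loci with Jun and another monomer. Loci were found on 20 chromosomes, with 28 of 230 on chromosome 2 (12.2%, against 8.92% of the Jun KLA peaks) and 1 on chromosome X. The remaining 1 of the 230 lay on a contig not placed in the genome sequence, where no gene or motif was read.

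**Figure D2:**
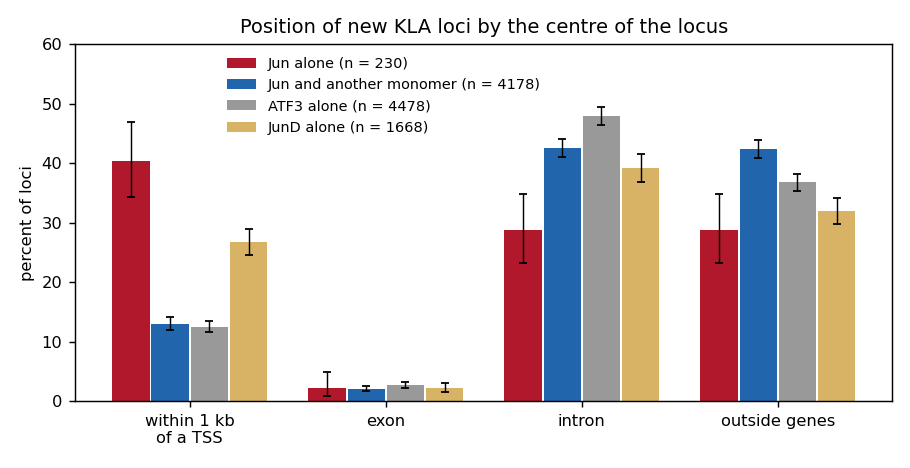
Percent of new KLA loci (y axis) by where the centre of the locus lay (x axis), for loci with Jun alone (red, n = 230), with Jun and another monomer (blue, n = 4178), with ATF3 alone (grey, n = 4478) and with JunD alone (sand, n = 1668). Bars are shares and whiskers 95% Wilson intervals; the red bar within 1 kb of a TSS stands at 40.4%, above 13.0%, 12.5% and 26.7% of the other sets.

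The nearest genes were diverse. The 229 loci on placed chromosomes had 220 different nearest protein-coding genes, which is 1.00% of the 21924 protein-coding genes, and 2492 genes (11.4%) were nearest to a new locus with Jun and another monomer. Being nearest does not show that a gene is regulated from the locus, and the gene lists were chosen with earlier results of these data known. Of 35 cytokine and chemokine genes, 6 were nearest to a Jun-alone locus: Il1b, Il27, Lif, Cxcl1, Cxcl5 and Tnfsf9. Of 26 immediate-early and MAP kinase phosphatase genes there were 4, namely Klf2, Klf6, Nr4a1 and Btg2. The 20 cytoskeleton and adhesion genes gave 2, Tpm4 and Coro1a. Lists of NFκB subunits and inhibitors (Nfkbid), AP-1 genes (Atf3), macrophage lineage and receptor genes (Runx1), TLR4 signalling genes (Peli1) and iron and redox genes (Fth1) gave 1 each. The 25 interferon response genes, 23 lipid and cholesterol genes and 20 lysosome and phagocytosis genes gave none. Loci with Jun and another monomer were nearest to 24 of the 35 cytokine genes and to 20 of the 26 immediate-early genes.

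Among these named loci, that of Cxcl1, a neutrophil chemokine gene, was 643 bp upstream of the start and had a Jun count of 24. In BALB/cJ KLA it had peaks of ATF3 with a count of 44, JunD with 56, Fos with 63 and JunB with 29, and none of Jun. The Il27 locus, 84 bp upstream of the start of this cytokine gene, had a Jun count of 20 and PU.1 counts of 143 in Veh and 122 in KLA. BALB/cJ KLA peaks of JunD with a count of 63 and of JunB with 28 overlapped it. At Nr4a1, an orphan nuclear receptor gene, the locus was 835 bp upstream with a Jun count of 20, and it was overlapped by CEBPα in KLA, with a count of 74, and not in Veh. The Il1b locus, 18.9 kb from the start of the gene, had a Jun count of 18 and PU.1 in both treatments but no AP-1 peak in BALB/cJ. At the start of Nfkbid, which encodes a nuclear inhibitor of NFκB, the Jun count was 16, the lowest of the list. In an intron of Atf3, the gene of one of the 6 monomers, the Jun count was 18 and the PU.1 counts were 465 in Veh and 148 in KLA. In Runx1, which encodes a factor of blood cell development, the Jun count was 24, and a CEBPα KLA peak with a count of 69 was the only peak from the 16 lists. The loci near Peli1, Klf6, Lif, Cxcl5, Tnfsf9, Klf2 and Btg2 had Jun counts from 17 to 21. The gap to the nearest C57BL/6 KLA peak of another monomer was 57 bp at Il27, 90 bp at Runx1 and 228 bp at Cxcl1. It was 229 bp at Atf3, 286 bp at Nfkbid, 424 bp at Nr4a1 and 2055 bp at Il1b.

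The AP-1 site itself was less frequent at these loci than at the others. In the central 200 bp, the TRE (TGACTCA) was found at 27 of the 229 loci with placed sequence, 11.8% (8.23 to 16.6). It was found at 30.4% of all KLA loci. At new loci with Jun and another monomer it was found at 30.9%, a difference of Jun alone minus the others of -19.1 points (-22.9 to -14.1). It was found at 22.6% of loci with ATF3 alone and 19.8% of loci with JunD alone, with differences of -10.8 (-14.6 to -5.87) and -8.05 points (-12.1 to -2.89). Within the lowest of 5 count bins the difference from Jun and another monomer was -20.0 points (-24.2 to -14.6). The CRE (TGACGTCA) was found at 2 loci (0.873%, against 1.54% of all KLA loci). The mixed CEBP and ATF site TGATGCAA was found at none, against 2.15% of all KLA loci. The median Jun count was 18 at loci with a TRE and 19 at those without.

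The motifs differed by position. Within 1 kb of a TSS, 4 of 93 Jun-alone loci (4.30%, 1.69 to 10.5) had a TRE, against 21.5% of 544 loci with Jun and another monomer (18.3 to 25.2) and 2.69% of 54327 windows of the same length at protein-coding TSSs. Farther away, 23 of 136 had a TRE (16.9%, 11.5 to 24.1), against 32.3% of 3633 (30.8 to 33.8). The differences from loci with Jun and another monomer were -17.2 points (-21.7 to -10.2) at promoters and -15.4 points (-21.0 to -8.03) farther away. The Sp1 box CCCCGCCC, a common promoter element, was found at 24 of 93 (25.8%, 18 to 35.5), against 13.6% of promoter loci with Jun and another monomer (11.0 to 16.7) and 16.1% of TSS windows. The Egr site GTGGGCG was found at 14 of 93 (15.1%, 9.18 to 23.7) against 6.80% (4.97 to 9.23) and 6.63%, and the ETS site CCGGAAGT at 6 of 93 (6.45%, 2.99 to 13.4) against 2.94% (1.82 to 4.72) and 3.81%. At promoters the difference between Jun alone and Jun with another monomer was 12.2 points for Sp1 (3.79 to 22.3), 8.25 for Egr (1.90 to 17.1) and 3.51 for ETS (-0.383 to 10.5). Over all loci it was 10.3 points for Sp1 (6.43 to 15.4), 6.58 for Egr (3.45 to 11.0) and 2.78 for ETS (1.04 to 6.03), and in the lowest of 5 count bins 8.53 (4.53 to 13.9), 5.64 (2.45 to 10.4) and 1.56 points (-0.0205 to 4.85). The median GC content of the 93 windows was 62.0% with 15 CpG sites, against 53.0% and 5 at promoter loci with Jun and another monomer and 59.0% and 9 at all TSS windows. Letters such as those of the Sp1 box follow GC content, and the part of GC content in these shares was not tested.

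The letters of other factors' sites were searched in the same windows. The NFκB letters GGGANNTTC were found at 7 of 229 loci (3.06%), against 10.1% at loci with Jun and another monomer, a difference of -7.05 points (-8.88 to -3.81). The IRF letters GAAANNGAA were found at 15 (6.55%), a difference of -4.65 points (-7.38 to -0.574). Over all KLA loci the shares were 5.08% for the NFκB and 8.88% for the IRF letters. Against loci with ATF3 alone the differences were -1.46 points (-3.15 to 1.71) and -3.55 points (-6.25 to 0.518). Against loci with JunD alone they were -3.54 points (-5.57 to -0.234) and -4.06 points (-7.05 to 0.149). Within the lowest of 5 count bins the loci with Jun and another monomer were compared again. The difference for the IRF letters had an interval that included 0 (-3.00 points, -6.26 to 1.68), and that for the NFκB letters did not (-4.98, -7.18 to -1.32). The PU.1 site ACTTCCT was found at 33 loci (14.4%) and differed from all loci with Jun and another monomer by -0.528 points (-4.64 to 4.71). The CEBP site TTGCNNAA was found at 25 (10.9%), the Runx site TGTGGTT at 11 (4.80%), AGGTCA at 34 (14.8%) and the E-box TCACGTG at 3 (1.31%), each with an interval of the difference that included 0. The CTCF letters CCACNAGGG were found at none. The shares of all KLA loci were 18.6% for PU.1, 15.7% for CEBP, 7.09% for Runx, 16.1% for AGGTCA, 2.44% for the E-box and 1.07% for CTCF. No match says only that these letters are absent from the window. The shares of TSS windows with these letters were 2.55% for the NFκB letters, 5.11% for the IRF letters, 5.97% for PU.1, 5.50% for CEBP, 2.90% for Runx, 9.19% for AGGTCA, 2.90% for the E-box and 0.919% for CTCF. None of the 14 motifs was found at 87 of the 229 loci, the Coro1a locus printed above among them. The share of all KLA loci with none of the motifs was not counted.

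**Figure D3:**
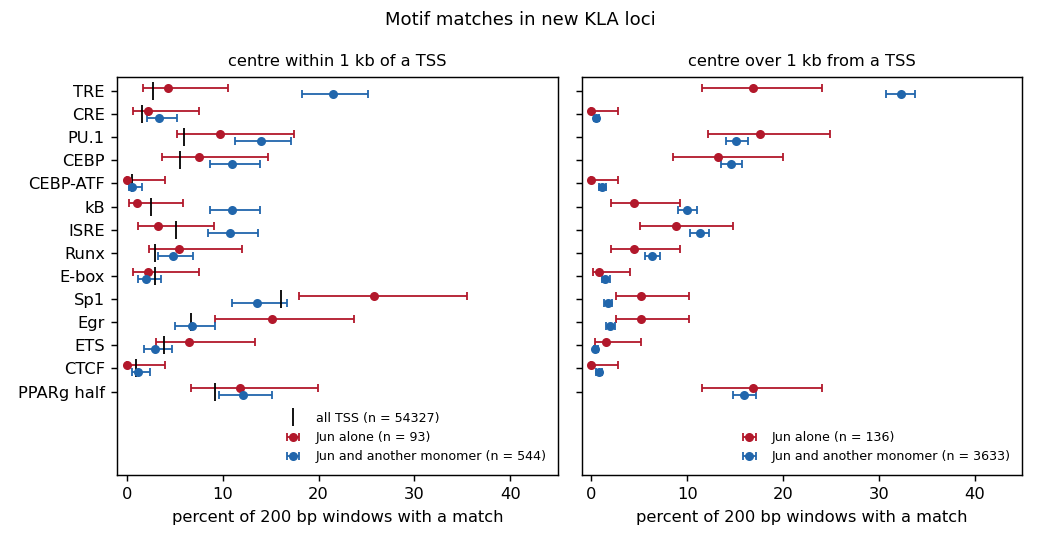
Percent of 200 bp windows with a motif match on either strand (x axis) for each of 14 motifs (y axis), at loci within 1 kb of a TSS (left) and farther away (right). Red points are new loci with Jun alone and blue points new loci with Jun and another monomer, with 95% Wilson intervals; black ticks are the 54327 TSS windows. The red TRE point lies at 4.30% on the left, below 21.5% in blue, and at 16.9% on the right, below 32.3%.

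PU.1 was present at a minority of the loci. Where present it was mostly in both treatments, which was also so over all KLA loci. A PU.1 KLA peak overlapped 86 of 230 loci, 37.4% (31.4 to 43.8), against 52.2% of all KLA loci, and a PU.1 Veh peak 75, 32.6% (26.9 to 38.9), against 42.3%. Both treatments gave a peak at 67 loci (29.1%, against 38.5% of all KLA loci) and KLA alone at 19 (8.26%, against 13.7%). Veh alone gave one at 8 (3.48%, against 3.76%), and 136 had neither (59.1%, against 44.0%). New loci with Jun and another monomer had PU.1 more often in KLA (53.3%, a difference of -15.9 points, -22.1 to -9.35) and less often in Veh (23.2%, a difference of 9.44 points, 3.56 to 15.9). A PU.1 peak in KLA and not in Veh was found at 8.26% of Jun-alone loci and 31.1% of loci with Jun and another monomer, a difference of -22.8 points (-26.1 to -18.3), and of -13.5 points (-17.3 to -8.39) in the lowest of 5 count bins. For the whole share with PU.1 in KLA, the interval in that bin included 0 (-6.69 points, -13.6 to 0.671). Against loci with JunD alone, the difference was -6.19 points in KLA (-12.7 to 0.639) and 0.834 in Veh (-5.33 to 7.50). Against loci with ATF3 alone, it was 15.3 points in KLA (9.16 to 21.8) and 14.5 in Veh (8.65 to 20.9). The 2 PU.1 lists differ in scale, with a median count of 259 in Veh and 62 in KLA, and the part of depth in these shares was not tested.

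The PU.1 peaks at these loci were of ordinary rank. At the 86 loci the PU.1 KLA count ran from 27 to 223 with a median of 70, against 62 over the list, and a median of 42.9% of the list ranked above them. These PU.1 peaks thus lay near the middle of their list, while the Jun peaks lay near the bottom of theirs. Of the 33 loci with the PU.1 site ACTTCCT, 23 had a PU.1 KLA peak (69.7%), against 63 of the 196 without it (32.1%), a difference of 37.6 points (19.2 to 51.9).

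CEBPα was rarer. A CEBPα KLA peak overlapped 22 of 230 loci, 9.57% (6.40 to 14.1), against 28.7% of all KLA loci, and a CEBPα Veh peak 13, 5.65% (3.33 to 9.43), against 21.4%. Loci with Jun and another monomer had CEBPα in KLA at 29.9%, a difference of -20.4 points (-23.8 to -15.7), and in the lowest of 5 count bins the difference was -10.6 points (-14.7 to -5.29). In Veh the difference was 0.841 points (-1.58 to 4.67). New loci with ATF3 alone and with JunD alone had CEBPα in KLA at 8.73% and 8.09%, with intervals of the difference that included 0 (-2.45 to 5.39 and -1.99 to 6.12). CEBPα was present in KLA and not in Veh at 14 Jun-alone loci, 6.09%, against 25.5% with Jun and another monomer.

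PPARγ, mapped in Veh, overlapped 56 of 230 loci, 24.3% (19.3 to 30.3), against 42.5% of all KLA loci. The difference from loci with Jun and another monomer was 2.42 points (-2.83 to 8.49). Promoter loci carried it more often, 36 of 93 (38.7%) against 20 of 137 farther away (14.6%), a difference of 24.1 points (12.6 to 35.4). Among promoter loci the difference between Jun alone and Jun with another monomer was 1.94 points (-8.20 to 12.8).

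In PPARγ knockout TGEMs in Veh, no Jun peak overlapped the 230 loci (0%, up to 1.64), against 9.42% of all KLA loci. The rule had already removed loci with a Jun Veh peak in wild-type cells, and at loci with Jun and another monomer the share was 0.933%. The knockout Jun list held 4290 peaks, against 28318 for ATF3 and 19355 for JunD. ATF3 peaks of the knockout overlapped 36 loci, 15.7% (11.5 to 20.9), against 49.9% of all KLA loci, and JunD peaks 30, 13.0% (9.29 to 18), against 30.4%. The difference from loci with Jun and another monomer was -6.82 points for ATF3 (22.5% there, -11.1 to -1.42) and 2.18 for JunD (10.9% there, -1.70 to 7.23). Over 1 kb from a TSS it was -12.5 points for ATF3 (-16.6 to -6.31) and -3.42 for JunD (-6.66 to 2.10). Any knockout peak was present at 56 of the 230 loci (24.3%), against 55.5% of all KLA loci and 28.0% with Jun and another monomer, a difference of -3.61 points (-8.89 to 2.48). The knockout ATF3 peaks there were weak, with a median count of 19 and a median of 76.1% of the list above them, and the JunD peaks had a median count of 29 with 60.6% above. At promoter loci ATF3 was found at 24.7% and farther away at 9.49%, a difference of 15.2 points (5.48 to 25.6), and JunD at 22.6% and 6.57%, a difference of 16 points (6.90 to 26.0). Among promoter loci, Jun alone minus Jun and another monomer was -0.820 points for ATF3 (-9.37 to 9.44). For JunD it was 5.85 points (-2.20 to 15.8).

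**Figure D4:**
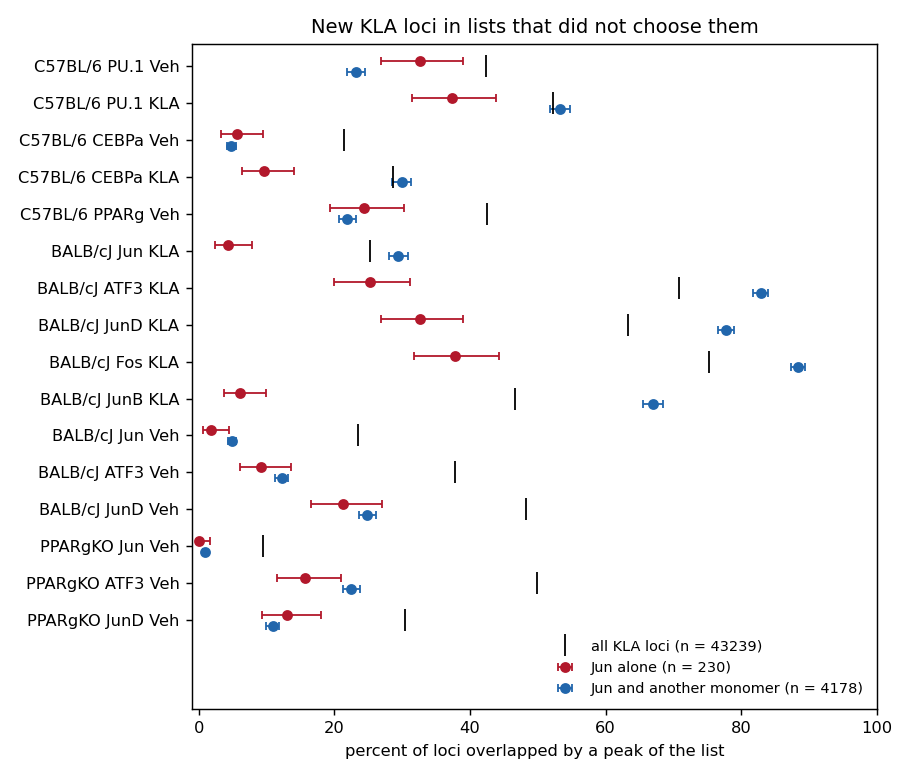
Percent of loci overlapped by a peak (x axis) in each of 16 lists that did not choose the loci (y axis). Red points are the 230 new loci with Jun alone and blue points the 4178 with Jun and another monomer, with 95% Wilson intervals; black ticks are all 43239 KLA loci. In BALB/cJ KLA the red points lie between 4.35% and 37.8% and the blue between 29.4% and 88.4%.

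BALB/cJ TGEMs seldom had a Jun peak at these loci. A BALB/cJ Jun KLA peak overlapped 10 of 230 loci, 4.35% (2.38 to 7.82), against 25.2% of all KLA loci and 29.4% of new loci with Jun and another monomer, a difference of -25.0 points (-27.4 to -21.3). Weak peaks were found again less often: the share was 66.4% in the highest and 14.5% in the lowest of 5 count bins at loci with Jun and another monomer. In that lowest bin it was 7 of 198 (3.54%, 1.72 to 7.12) with Jun alone and 223 of 1533 (14.5%, 12.9 to 16.4) with another monomer, a difference of -11.0 points (-13.6 to -7.06). The difference within this bin was smaller than over all loci, and its interval did not include 0. Counts were not matched inside the bin. Counts from 16 to 19 were held by 140 of the 198 Jun-alone loci and by 747 of the 1533 with another monomer. New loci with ATF3 alone and with JunD alone, which had no Jun peak in C57BL/6, had a BALB/cJ Jun KLA peak at 3.33% and 4.74%, and the differences from the Jun-alone loci were 1.02 (-1.03 to 4.52) and -0.388 points (-2.66 to 3.20).

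**Figure D5:**
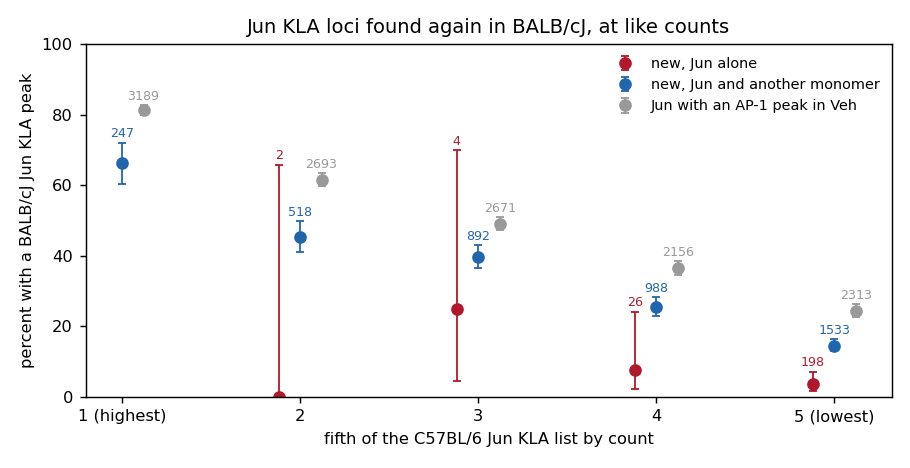
Percent of C57BL/6 Jun KLA loci overlapped by a BALB/cJ Jun KLA peak (y axis) by count bin of the C57BL/6 Jun KLA list (x axis), with 95% Wilson intervals and the number of loci above each point. Red is new loci with Jun alone, blue new loci with Jun and another monomer, and grey loci with a Veh peak of ATF3, Jun or JunD; in the lowest bin the shares are 3.54%, 14.5% and 24.4%.

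Other monomers occupied the loci in BALB/cJ more often than Jun did. Fos KLA peaks overlapped 87 loci, 37.8% (31.8 to 44.2), against 75.3% of all KLA loci. JunD KLA peaks overlapped 75, 32.6% (26.9 to 38.9), against 63.3%. ATF3 KLA peaks overlapped 58, 25.2% (20.0 to 31.2), against 70.8%, and JunB KLA peaks 14, 6.09% (3.66 to 9.96), against 46.7%. All 4 shares were lower than at loci with Jun and another monomer, with differences of -60.9 to -45.2 points, and of -47.3 to -33.4 points in the lowest of 5 count bins. The rule removed loci with a C57BL/6 KLA peak of these 4 monomers, while the compared set needed a peak of another monomer. A lower share in BALB/cJ was therefore favoured by the choice of sets, and these differences are a description. Against loci with ATF3 alone, the differences were -12.9 points for ATF3 (-18.3 to -6.75), -4.63 for JunB (-7.23 to -0.665), -2.73 for Fos (-8.92 to 3.85) and 5.48 for JunD (-0.404 to 11.9). Against loci with JunD alone, they were -10.4 points for Fos (-16.9 to -3.59), -7.46 for JunB (-10.4 to -3.29), -6.66 for JunD (-12.9 to 0.0532) and -5.72 for ATF3 (-11.4 to 0.652). The lists differ in length, with 11317 peaks for BALB/cJ Jun KLA, 40459 for Fos and 33850 for JunD, and the part of list length in the order of these shares was not tested.

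Any of the 5 BALB/cJ KLA monomers was present at 126 of 230 loci (54.8%), against 86.7% of all KLA loci and 94.6% with Jun and another monomer, a difference of -39.9 points (-46.3 to -33.5). The choice of sets favoured this difference too, and it is a description. At 116 of the 126 there was another monomer and no Jun, at 9 Jun with another monomer, and at 1 Jun alone. So Jun without ATF3, JunD, Fos or JunB was seen again in BALB/cJ at 1 of the 230 loci. No BALB/cJ FosL2 sample was used here, so the full pattern that chose the loci could not be scored. The shares of all KLA loci with Jun alone, or with exactly 1 monomer, in BALB/cJ were not counted. Exactly 1 monomer was present at 50 loci: Fos at 22, JunD at 17, ATF3 at 8, and the rest were JunB or Jun. Of 27 loci with a TRE, 14 had a BALB/cJ KLA peak (51.9%), against 112 of 202 without (55.4%), a difference of -3.59 points (-22.7 to 15.1).

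The 5 highest BALB/cJ Jun KLA counts at these loci were 50 in an exon of Mki67, the gene of a proliferation marker, 34 near Fth1, 34 at Hpse, 28 at Coro1a and 27 at Dnttip2. The Mki67 locus had a count of 17 in C57BL/6. The 2 Jun KLA lists differ in scale, with a median count of 36 in BALB/cJ and 31 in C57BL/6. In C57BL/6 KLA, another Jun peak lay 116 bp from the Mki67 locus, and a peak of another monomer 26 bp from it. At Coro1a, which encodes an actin-binding protein of leukocytes, the C57BL/6 count was 22. The Fth1 locus had all 5 monomers in BALB/cJ KLA, with counts of 34 for Jun, 51 for ATF3, 58 for JunD, 50 for Fos and 27 for JunB, and PU.1 in both treatments of C57BL/6. Peaks of C57BL/6 KLA lay close to the Fth1 locus, that of ATF3 at 117 bp and that of JunD at 202 bp. The Hpse locus had BALB/cJ KLA counts of 34 for Jun, 32 for ATF3, 47 for JunD and 42 for Fos.

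In BALB/cJ Veh, JunD peaks overlapped 49 loci, 21.3% (16.5 to 27.0), against 48.2% of all KLA loci, ATF3 peaks 21, 9.13% (6.05 to 13.6), against 37.8%, and Jun peaks 4, 1.74% (0.678 to 4.39), against 23.5%. The rule required that these 3 monomers be absent in C57BL/6 Veh, and 60 of the 230 loci had at least 1 of them in BALB/cJ Veh (26.1%), against 55.2% of all KLA loci and 29.5% of loci with Jun and another monomer, a difference of -3.40 points (-8.83 to 2.79). The differences for JunD and ATF3 had intervals that included 0 (-8.52 to 2.34 and -6.32 to 1.45), and that for Jun was -3.12 points (-4.39 to -0.404). All 10 loci with a BALB/cJ Jun KLA peak had no BALB/cJ Veh peak of these monomers, as had 88 of the 126 loci with any BALB/cJ KLA peak.

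Over the 16 lists that did not choose them, 42 of the 230 loci (18.3%) were in none, against 1.75% of loci with Jun and another monomer. A further 31 were in 1 list and 49 in 5 or more. Among loci within 1 kb of a TSS, 9 of 93 were in no list, and among those farther away 33 of 137. The lists include KLA lists of the same monomers in BALB/cJ. The rule removed loci with a KLA peak of another monomer, while the compared set needed one. A higher share in no list was therefore favoured by the choice of sets, and the difference is a description. The share of all KLA loci in no list was not counted, and the other counts given here have no compared set.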

How the data were processed

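Peaks were analysed as the authors deposited them. Their ChIP-seq reads were aligned by Bowtie2 to mm10 (BALB/cJ reads to a strain genome, then moved to mm10 positions), HOMER called the peaks, and the authors kept peaks with an IDR below 0.05 between replicate experiments (idr 2.0.3). The count that the authors deposited for each peak is a whole number, not scaled to library size, and the deposited score is the scaled IDR. Of 30 lists, 28 were used; the BALB/cJ Veh lists of Fos and JunB held few or no peaks. Summed counts ranged from 9196 to 13809143 per list. Groups came from the sample labels.

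Scripts in Python 3.11.15 (numpy 2.4.6, pandas 2.3.3, pysam 0.24.0) joined peaks that overlapped by 1 bp. Motifs were exact consensus matches in the central 200 bp of GRCm38, and TSSs were those of GENCODE protein-coding genes. The overlap calls and intervals were tested on simulated data. Named loci were the 12 with the highest Jun KLA count (ties by score), the 5 with the highest BALB/cJ Jun KLA count and up to 4 per gene list; Lif and Tnfsf9 were named beyond it after their values were seen, as members of a list counted in full. The members and lists were chosen with earlier results of these data known. No tests of significance were run. Alternatives are given in the closing section.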

Additional observations from a re-analysis of the deposited data

How the results depend on the processing

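With 1 list per condition, no replicate could be left out, and counting error is the error given. The number of loci with Jun alone, 230, was 421 when a Jun peak had only to lie over 100 bp, by centre, from other peaks, 9 with scores of 830 or more, 60 with the strongest 50% of each list and, chosen after seeing the data, 6 with the strongest 50% of the Jun KLA list alone.

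Loci with a score of 830 or more, only 9, gave 33.3% within 1 kb of a TSS, 66.7% with PU.1 in KLA and 55.6% in Veh, 0% with CEBPα in KLA and 0% in Veh, 22.2% with BALB/cJ Jun and 33.3% with a TRE. At these 9 loci the difference from Jun and another monomer turned for PU.1 in KLA (6.55 points, -24.8 to 27.9), for CEBPα in Veh (-4.97, -6.02 to 25.0) and for the TRE (0.905, -20.5 to 32.2), and for BALB/cJ Jun (-20.2 points, -36.3 to 12.4) its interval included 0. A distance of 3 kb gave 49.1% near a TSS. Overlap of at least 50% of the narrower region gave 31.3% with PU.1 in KLA. Over 1 kb from a TSS, 2.19% had BALB/cJ Jun and 16.9% a TRE, and the difference for PU.1 in Veh was 5.53 points (-1.42 to 13.7). In the lowest of 5 count bins, an alternative chosen after seeing the data, that for PU.1 in KLA was -6.69 points. The number of loci was 179 when peaks within 200 bp were joined and 221 when Veh peaks of all 6 monomers removed a locus, both within 1.5 times of 230. Counting these, 81 values were classed as the same: differences kept their direction and their side of 0, and shares stayed within the interval of the value reported. The size of a difference did not enter this class. In the lowest of 5 count bins the difference was -11.0 points for BALB/cJ Jun, against -25.0 over all loci. For CEBPα in KLA it was -10.6 points in that bin and -38.4 at scores of 830 or more, against -20.4. The 81 values include the Jun peak in place of the merged locus and loci over 1 kb from other AP-1 KLA peaks, both chosen after seeing the data. The causes were not tested.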
